A study of Mus musculus with 6 samples.

Results

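Collagens are the main structural proteins of the extracellular matrix, and the collagen genes were described here in the RNA of sorted mouse muscle stem cells (MuSCs). The members were all genes whose symbol has the form Col, a number, the letter a and a second number, which gave 44 of the 49671 genes in the deposited tables. They were grouped by the structure their products build into 11 fibrillar, 8 basement membrane and 9 FACIT genes (fibril-associated collagens with interrupted triple helices) and 16 other genes, such as the beaded-filament collagen VI.

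The study asked how resolvin D1 (RvD1), a lipid mediator that resolves inflammation, affects MuSCs during muscle repair. Female C57BL/6 mice of 4 to 6 months received 50 µL of 1.2% BaCl2, which kills myofibers, in each tibialis anterior (TA) muscle, so no uninjured library was analysed here and all 6 mice carried the injury. The RvD1 group (n = 3) was given 100 ng RvD1 each day by intraperitoneal injection and the vehicle group (n = 3) was given saline with 0.1% ethanol. At day 3 the 2 TA muscles of 1 mouse were pooled for each library, and cells were sorted as negative for Ter119, CD45, CD11b and Sca-1 and positive for CXCR4 and β1 integrin. The sample labels add CD31 to the negative markers, while the study's methods do not list it.

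A collagen molecule is a triple helix of 3 α chains, each coded by its own gene. Fibrillar collagens I, III and V form the cables of the muscle's connective tissue. Type IV collagen forms the sheet of the basement membrane under which MuSCs lie, and collagen VI links that sheet to the interstitial matrix. FACIT collagens sit on the surface of fibrils. MuSCs themselves make some of these chains, but fibroblast-like cells and tenocytes (tendon cells) are the best known sources in muscle. In a bulk sample of sorted cells, more RNA per cell and more cells of a collagen-rich type cannot be told apart.

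The promoter sequences of the most abundant members and the start shared by the type IV pair are shown because these genes carry most of the collagen RNA or start next to each other. They were read from RefSeq on GRCm38.p6, plus strand, 5′ to 3′. The first stretch, chr1:45311288-45311537, lies just before the start of Col3a1 and has a TATAAA motif in capitals, which begins 117 bases before the start. The second, chr6:4505370-4505492, lies within the annotated interval of Col1a2 but in no exon, and has 2 GGGCGG motifs in capitals, 205 and 188 bases before the RefSeq start at 4505618. The third, chr8:11312805-11312826, is the stretch of 22 bases shared by the first exons of Col4a1 and Col4a2, which point away from each other, with its GGGCGG motif in capitals.
Col3a1: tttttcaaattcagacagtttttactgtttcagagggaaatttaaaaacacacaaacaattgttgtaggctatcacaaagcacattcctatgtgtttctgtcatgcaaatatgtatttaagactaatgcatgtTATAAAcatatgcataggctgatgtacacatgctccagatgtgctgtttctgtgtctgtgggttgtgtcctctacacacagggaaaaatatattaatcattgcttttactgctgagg
Col1a2: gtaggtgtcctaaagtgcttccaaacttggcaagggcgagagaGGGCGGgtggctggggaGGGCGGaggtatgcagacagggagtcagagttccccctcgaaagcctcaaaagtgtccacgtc
Col4a1 and Col4a2: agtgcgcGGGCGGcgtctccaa
The GC content was 35.2% in the Col3a1 stretch, 59.3% in the Col1a2 stretch and 72.7% in the Col4a1 and Col4a2 stretch. In RefSeq windows from 250 bases before to 50 bases after each start, searched on both strands, GGGCGG was found in 23 of 38 collagen windows (60.5%) and in 35.7% of all 32851 windows. TATAAA was found in 5 of the 38 collagen windows (13.2%) against 13.6% of all windows, and CCAAT in 13 (34.2%) against 37.4%. The collagen windows belong to 35 of the 44 genes, so some genes count more than once, and a match describes letters and not a working site.

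Several members are neighbours in the genome. On chromosome 8 Col4a1 and Col4a2 overlap head to head by 22 bases, on chromosome 1 Col4a3 and Col4a4 start 71 bases apart, and on the X chromosome Col4a5 and Col4a6 start 1308 bases apart. Col3a1 and Col5a2 lie tail to tail on chromosome 1 with a gap of 24614 bases. Levels within a pair could differ widely, as with Col4a5 at a mean of 5.85 TPM (transcript abundance scaled for length and to 1 total per library) and Col4a6 at 0.448 TPM over all 6 libraries. The library kit does not mark strand, so reads within the overlap of Col4a1 and Col4a2 cannot be assigned by direction.

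Total expected counts were 17962025 to 28149176 per library with RvD1 and 16148026 to 18755643 with vehicle. A floor of 3 counts corresponds to 0.107 to 0.186 CPM (counts scaled to the library total), and intervals and floors of this kind cover counting error only. The CPM used below for overlaps and ranges was also scaled by the TMM normalization factor of each library. RvD1 replicate 1 stood apart for the collagen genes. Collagen genes took 0.731% of its counts, while it was 0.391% and 0.507% in the other two RvD1 libraries. The share was 0.493%, 0.433% and 0.447% in vehicle replicates 1, 2 and 3. RvD1 replicate 1 also stood apart beyond the collagen genes. Over the more abundant genes of the whole series, its chi-square per degree of freedom was 62.05 against RvD1 replicate 2 and 53.5 against replicate 3. This measure, larger for less similar libraries, was 17.25 between RvD1 replicates 2 and 3 and 6.699 to 14.69 among the vehicle libraries. It also grows with depth. Results are therefore given with and without RvD1 replicate 1. As for the label, the MuSC and myoblast genes Pax7 (4.03 to 8.50 TPM), Myf5 (101 to 220 TPM) and Myod1 (239 to 470 TPM) were found in every library. Of the genes of markers gated out, Ptprc, which codes for CD45, was at 0.08 to 1.13 TPM. Itgam, which codes for CD11b, was at 0.17 to 0.80 TPM. Transcripts of other cells were not absent, as Ly6a, the gene of Sca-1, was at 17.25 to 39.72 TPM. The leukocyte genes Lyz2 and Cd68 were at 17.55 to 61.06 TPM and 4.87 to 11.03 TPM.

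No collagen gene passed the test of a difference between RvD1 and vehicle MuSCs. Of the 44 members, 36 had enough counts to be tested, and none passed an adjusted p of 0.05 in edgeR's quasi-likelihood test (smallest 0.971), as for all 14494 genes tested, of which 0.0% passed. None had an unadjusted p under 0.05 either, against 3.47% of all genes tested. DESeq2 gave 0 members past an adjusted p of 0.05 and 1 (Col11a1) past an unadjusted p of 0.05, against 3.27% of all genes in that fit. Without a filter on low counts 8 of 44 members (18.2%) had an unadjusted p under 0.05, against 4.29% of all genes, and with replicate number as a block 3 of 36 (8.33%) did, against 6.18%. In the limma-voom fits the number was 4 of 44 (9.09%) with 1 surrogate variable or with the number from num.sv, against 11.2% of all genes, and 10 of 44 (22.7%) with 2, against 25.3%. It was 1 with limma on log2(TPM + 1), against 4.35% of all genes, 1 without RvD1 replicate 3, against 4.61%, and 1 without vehicle replicate 1, against 3.27%. Among the alternatives run, only limma-voom with 2 surrogate variables removed gave collagen genes past an adjusted p of 0.05, namely 2 (Col9a1 and Col22a1), in a fit that called 1727 of all genes. Fold changes leaned upward, with 30 of the 36 above 0 (53.5% of all genes tested were above 0) and a median log2 fold change of 0.20 against 0.014 over all genes. Without RvD1 replicate 1 this lean was gone, with 15 of 36 above 0 (50.3% of all genes) and a median of -0.025 against 0.001 over all genes. This library was singled out for its high collagen share, so a lower median without it was largely fixed in advance. Of the same 36 genes, 31 were above 0 without RvD1 replicate 2 (median 0.41) and 31 without RvD1 replicate 3 (median 0.27). RvD1 replicate 2 had the lowest collagen share, so the higher median without it was also largely fixed in advance. The 36 members share libraries, and these counts carry no test.

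Summed over all 44 genes, collagen RNA was 2659, 1331 and 1789 TPM in RvD1 replicates 1, 2 and 3, against 1678, 1462 and 1493 TPM in the vehicle replicates in the same order. The RvD1 group thus held both the highest and the lowest library, with a mean of 1926 ± 674 TPM against 1544 ± 117 TPM with vehicle (SD, n = 3 each). The fibrillar class made up 71.6% to 73.5% of collagen TPM in every library. It summed to 1407 ± 506 TPM with RvD1 and 1118 ± 91.0 TPM with vehicle. The basement membrane class summed to 163 ± 40.6 and 138 ± 18.0 TPM, the FACIT class to 60.4 ± 23.1 and 44.4 ± 7.90 TPM, and the other collagens to 296 ± 106 and 244 ± 4.36 TPM, with RvD1 and vehicle respectively. In all 4 classes the difference between the means was smaller than the SD of the RvD1 group. The share of collagen TPM over the 6 libraries was 7.87% to 10.2% for basement membrane, 2.41% to 3.31% for FACIT and 14.8% to 16.4% for other collagens.

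**Figure D1:**
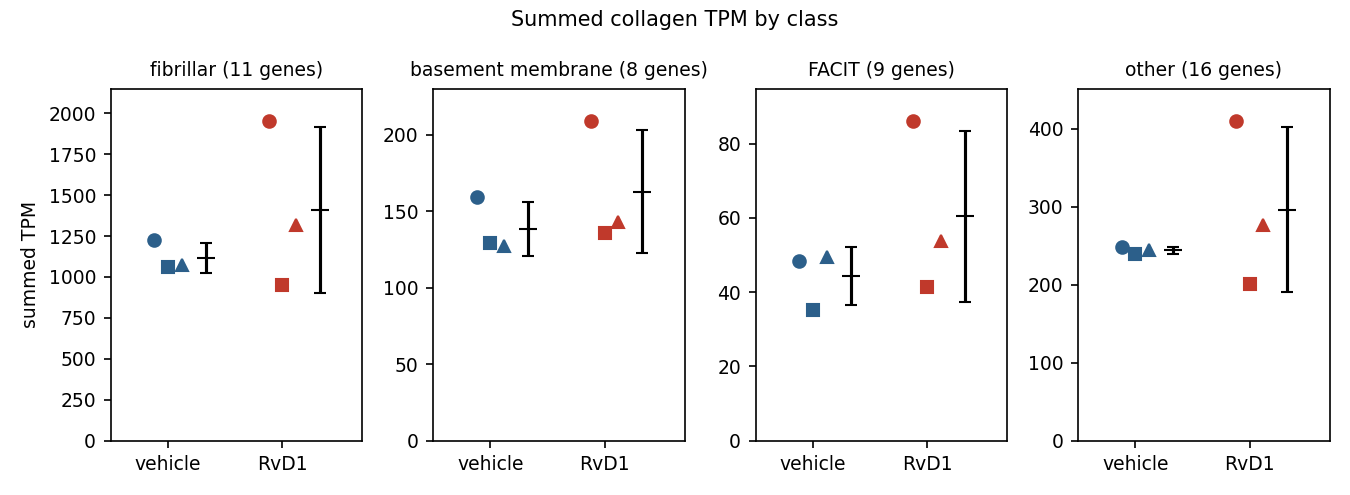
Summed TPM of each collagen class (vertical axis, linear from 0) in vehicle (blue) and RvD1 (red) libraries, with replicates 1, 2 and 3 as circle, square and triangle and the mean ± SD (n = 3) as a black bar. RvD1 replicate 1 is the highest library in each class, and RvD1 replicate 2 is the lowest for fibrillar and other collagens.

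Levels spanned a wide range. Col3a1, Col1a2, Col1a1 and Col6a1 had a mean above 100 TPM, 11 further members had a mean of 10 to 100 TPM, 13 a mean of 1 to 10 TPM and 16 a mean under 1 TPM. The chains of collagens I and III, Col3a1, Col1a2 and Col1a1, together held 61.2% to 65.4% of collagen TPM in each library.

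Among the fibrillar genes, Col3a1, the single chain of collagen III (GRCm38 chromosome 1, 45311538 to 45349706), was the most abundant. It was at 806, 401 and 527 TPM in RvD1 replicates 1, 2 and 3 and at 528, 457 and 459 TPM in the vehicle replicates, a log2 fold change of 0.13 ± 0.19 (SE). Col1a2, the α2 chain of collagen I (chromosome 6, 4504814 to 4541544), was at 585, 321 and 436 TPM with RvD1 and 412, 344 and 344 TPM with vehicle (log2 fold change 0.19 ± 0.17). For both genes all vehicle values lay between RvD1 replicates 2 and 1. Col1a1, the α1 chain of collagen I (chromosome 11, 94936224 to 94953042), was at 347, 92.6 and 192 TPM with RvD1 and 118, 118 and 142 TPM with vehicle. Its log2 fold change was 0.51 ± 0.33, with an unadjusted p of 0.157 and an adjusted p of 0.971 in edgeR's quasi-likelihood test. Relative to its level, Col1a1 thus had the widest spread of the 3 abundant chains. For all 3 chains the lowest and the highest value were both in the RvD1 group.

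Collagen V, which nucleates collagen I fibrils, is coded by Col5a1, Col5a2 and Col5a3. Col5a2 was at 93.8, 70.2 and 79.6 TPM with RvD1 and 76.6, 68.5 and 63.4 TPM with vehicle. Col5a3 was at 58.5, 40.6 and 35.9 TPM with RvD1 and 50.5, 38.1 and 32.7 TPM with vehicle. Col5a1 was at 52.3, 24.6 and 36.3 TPM with RvD1 and 32.7, 28.0 and 25.6 TPM with vehicle. The groups overlapped for all 3 chains, whose log2 fold changes were 0.14 ± 0.11 for Col5a2, 0.073 ± 0.19 for Col5a3 and 0.25 ± 0.23 for Col5a1. The remaining tested fibrillar genes were low. Col11a1, a minor fibrillar chain known from cartilage, was at 5.91, 1.47 and 4.32 TPM with RvD1 and 1.73, 1.64 and 2.45 TPM with vehicle, and it had the smallest unadjusted p of all members (0.0949, adjusted p = 0.971, edgeR). RvD1 replicate 2 was the lowest of the 6 libraries for this gene, while RvD1 replicates 1 and 3 were the highest. Its partner Col11a2 had the largest log2 fold change of all members (1.35 ± 0.75), at 2.82, 0.42 and 1.38 TPM with RvD1 and 0.67, 0.32 and 0.81 TPM with vehicle. RvD1 replicate 1 held 135 counts of Col11a2 against 15 to 30 in each other library, and without it the log2 fold change was -0.017 for Col11a2 and 0.30 for Col11a1. Col24a1 and Col27a1 had log2 fold changes of 0.30 and -0.15. Over the 10 fibrillar genes tested the median was 0.22, with 9 above 0. Col2a1, the cartilage collagen, had 2 to 17 counts in a library and was not tested.

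**Figure D2:**
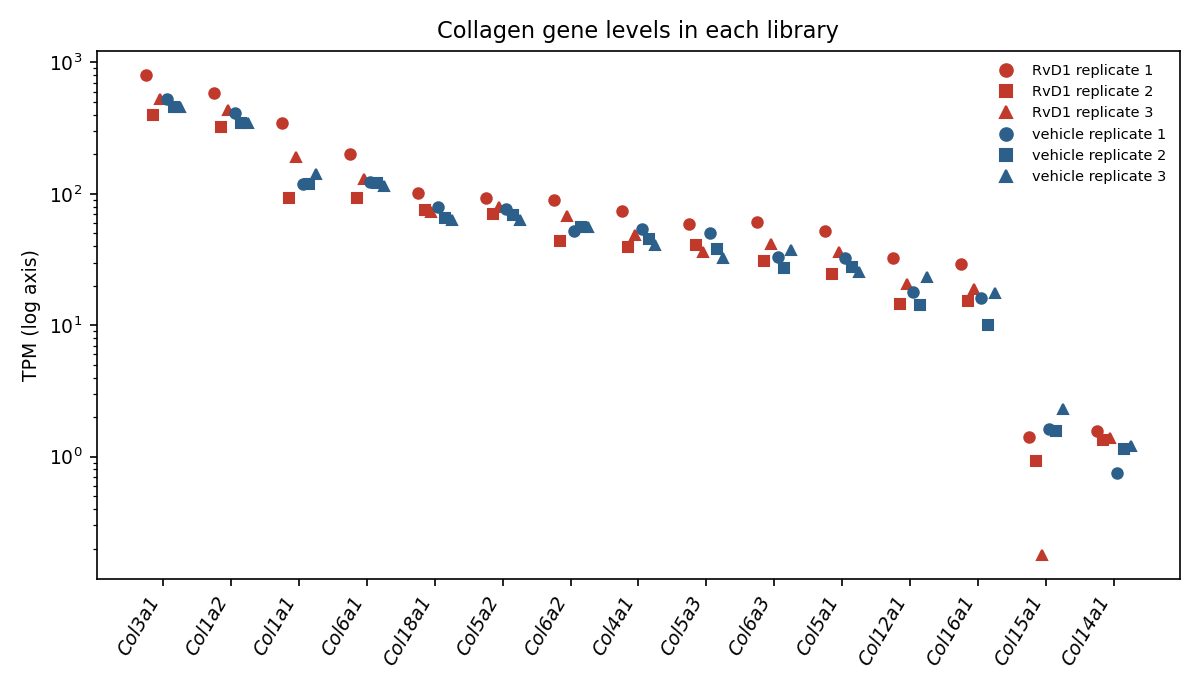
TPM (log axis) of 15 collagen genes in the 6 libraries, with RvD1 in red, vehicle in blue and replicates 1, 2 and 3 as circle, square and triangle. RvD1 replicate 1 is the highest library for every gene but Col15a1, where the highest is vehicle replicate 3 at 2.32 TPM.

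The basement membrane class was led by Col18a1 and the type IV chains Col4a1 and Col4a2. Col18a1, a heparan sulfate collagen from which endostatin is cleaved (chromosome 10, 77052178 to 77166548), was at 101, 75.3 and 72.8 TPM with RvD1 and 79.6, 65.3 and 63.0 TPM with vehicle (log2 fold change 0.18 ± 0.13). Col4a1 (chromosome 8, 11198423 to 11312826) was at 74.1, 39.1 and 48.7 TPM with RvD1 and 53.9, 45.0 and 40.6 TPM with vehicle (log2 fold change 0.28 ± 0.22). The groups overlapped for both genes. Col4a2 (log2 fold change 0.29 ± 0.19) was at 14.5 to 24.8 TPM with RvD1, against 11.6 to 15.8 TPM with vehicle. The chains Col4a5 and Col4a6 had log2 fold changes of -0.17 and -0.079, Col4a3 had 0.31 ± 0.65 on 2 to 17.1 counts in a library, and Col4a4, with 3 to 11 counts, was not tested. The median over the 7 tested genes of the class was 0.18, with 4 above 0.

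Col15a1, a basement membrane collagen that anchors it to the interstitial matrix (chromosome 4, 47208161 to 47313167), was the only tested member whose TPM was lower in every RvD1 library than in every vehicle library, an arrangement found in 2.52% of all genes tested. It was at 1.40, 0.93 and 0.18 TPM with RvD1 and 1.63, 1.56 and 2.32 TPM with vehicle. The counts behind these values were few, with 44, 28 and 10 counts with RvD1 and 40, 23 and 30 with vehicle, and in CPM the groups overlapped. The log2 fold change was -0.60 ± 0.49, with an unadjusted p of 0.254 and an adjusted p of 0.971 (edgeR). TPM and counts differ here in the effective transcript length, which RSEM sets for each library. Without RvD1 replicate 1 the log2 fold change was -1.18, and Col15a1 was then the 1 member with an unadjusted p under 0.05, against 4.33% of all genes.

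FACIT collagens were below the chains of collagens I, III and V. Col12a1, a FACIT chain of dense connective tissue and tendon (chromosome 9, 79598991 to 79718831), was at 32.4, 14.5 and 20.6 TPM with RvD1 and 17.9, 14.3 and 23.3 TPM with vehicle (log2 fold change 0.22 ± 0.27). Col16a1 (chromosome 4, 130047840 to 130099283) was at 29.0, 15.2 and 19.0 TPM with RvD1 and 16.2, 9.96 and 17.7 TPM with vehicle (log2 fold change 0.41 ± 0.22). Its unadjusted p was 0.0967 (adjusted p = 0.971, edgeR), and RvD1 replicate 2 lay below 2 of the vehicle libraries. Col14a1, a FACIT chain that binds collagen I fibrils (chromosome 15, 55307750 to 55520803), was at 1.56, 1.33 and 1.39 TPM with RvD1 and 0.75, 1.14 and 1.21 TPM with vehicle. It was the 1 tested member with every RvD1 TPM above every vehicle TPM, as were 8.89% of all genes tested, but in CPM its groups overlapped and its log2 fold change was 0.11 ± 0.27. Col20a1 had the largest fold change of the class (0.91 ± 0.54), resting on RvD1 replicate 1 at 14.2 TPM against 2.85 to 6.21 TPM in the other 5 libraries, and it was 0.10 without that library. Col19a1 and Col9a3 had log2 fold changes of 0.19 and 0.12. Col9a2 and Col22a1 had too few counts to test. Col9a1 had 0 counts in each RvD1 library and 1, 3 and 1 counts with vehicle, so both groups were at or under the floor of 3 counts and no fold is given. All 6 tested FACIT genes were above 0, with a median of 0.20, and 4 of the 6 stayed above 0 without RvD1 replicate 1.

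Among the other collagens, the collagen VI chains were the most abundant. Col6a1 (chromosome 10, 76708792 to 76726168) was at 201, 93.7 and 130 TPM with RvD1 and 123, 121 and 114 TPM with vehicle (log2 fold change 0.15 ± 0.22). Col6a2, on the same strand of chromosome 10, was at 90.6, 43.7 and 67.5 TPM with RvD1 and 52.5, 56.4 and 55.5 TPM with vehicle (log2 fold change 0.20 ± 0.21). Both sets of vehicle values lay within the RvD1 range. Col6a3, the longest chain of the trimer (chromosome 1, 90765923 to 90843971), was at 60.5, 30.6 and 41.5 TPM with RvD1 and 33.3, 27.1 and 37.4 TPM with vehicle (log2 fold change 0.27 ± 0.15). Col6a4, Col6a5 and Col6a6, alternative chains that can take the place of Col6a3 and lie next to each other on chromosome 9, were all at a mean under 1 TPM, and only Col6a6 was tested (log2 fold change 0.86 ± 0.86).

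Col8a1 (15.9 ± 1.09 TPM with vehicle), a network-forming chain of vessel walls, had a log2 fold change of 0.031 ± 0.20. Col8a2, its partner, had 0.55 ± 0.40. Col13a1, a membrane collagen of the neuromuscular junction and the myotendinous junction, was at 8.17 ± 1.48 TPM with RvD1, against 7.99 ± 2.33 TPM with vehicle (log2 fold change -0.038). Col7a1, Col17a1, Col23a1, Col25a1, Col26a1 and Col28a1 were at means of 0.445 to 5.53 TPM, with log2 fold changes of -0.18 (Col23a1) to 1.08 (Col25a1). Col25a1 codes for a membrane collagen that developing muscle needs for motor innervation, and its value of 1.27 TPM in RvD1 replicate 1 compared with 0.15 to 0.45 TPM in the other libraries. Without that library its log2 fold change was -0.044. Col10a1, the collagen of hypertrophic cartilage, had 0 to 14 counts in a library and was not tested. Over the 13 tested genes of this class the median was 0.20, with 11 above 0.

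**Figure D3:**
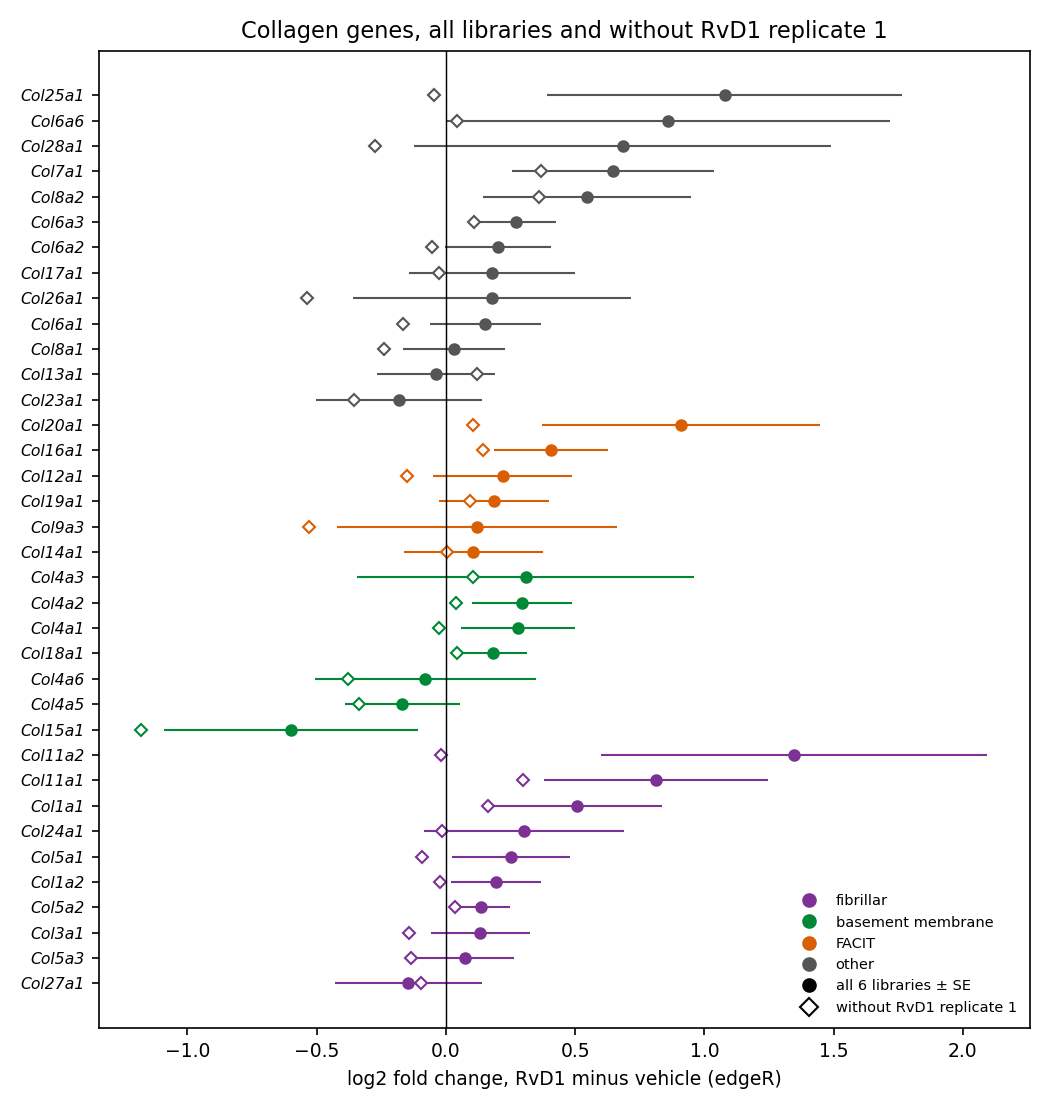
Log2 fold change (RvD1 minus vehicle, edgeR, horizontal axis) of the 36 tested collagen genes, grouped by class, as filled circles with SE bars for all 6 libraries and as open diamonds without RvD1 replicate 1. With all libraries 30 of 36 circles lie above 0, and without RvD1 replicate 1 15 of 36 diamonds do.

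The libraries were next compared gene by gene, since the same library recurred at the top. RvD1 replicate 1 had the highest TPM of the 6 libraries for 26 of the 36 tested members (72.2%), against 36.5% of all genes tested. The order RvD1 replicate 1, then 3, then 2 was found for 21 members (58.3%) and for 23.3% of all genes. RvD1 replicate 2 was the lowest of all 6 libraries for 11 members (30.6%), against 12.4% of all genes. Accordingly, the median range among the RvD1 libraries was 0.82 on the log2 scale (CPM + 1) for the collagen genes and 0.38 for all genes, while among the vehicle libraries it was 0.41 and 0.25.

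The collagen fold changes depended on which library was left out. Without RvD1 replicate 2, 10 of the 38 members then tested had an unadjusted p under 0.05, against 6.83% of all genes. All 10 were higher with RvD1, and the median over the 38 members was 0.42. RvD1 replicate 2 had the lowest collagen share of counts, at 0.391%. Higher fold changes without it were thus largely fixed in advance. These 10 were Col1a1, Col1a2, Col2a1, Col6a2, Col6a3, Col8a2, Col11a1, Col11a2, Col16a1 and Col25a1, and none had an adjusted p under 0.05. Without RvD1 replicate 1, Col3a1 had a log2 fold change of -0.14, Col1a2 of -0.024 and Col6a1 of -0.17, while Col1a1 stayed above 0 at 0.16. Of the 12 members with the highest mean TPM, 8 were below 0 without this library.

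Chains that assemble into 1 molecule or 1 fibril were compared as TPM ratios within each library, which cancel the overall amount of collagen. Collagen I holds 2 α1 chains for each α2 chain, yet Col1a1 was below Col1a2 in RNA in every library. The Col1a1 to Col1a2 ratio was 0.593, 0.289 and 0.441 in RvD1 replicates 1, 2 and 3, against 0.287, 0.343 and 0.413 in the vehicle replicates. The Col3a1 to Col1a1 ratio was 2.32, 4.33 and 2.74 with RvD1 and 4.46, 3.87 and 3.23 with vehicle. Both ratios overlapped between the groups, and their log2 differences (RvD1 minus vehicle) were 0.30 (p = 0.4) and -0.34 (p = 0.3) in exact two-sided permutation tests. The Col4a1 to Col4a2 ratio was 2.92 ± 0.21 with RvD1 and 3.31 ± 0.61 with vehicle, and the Col6a1 to Col6a2 ratio was 2.10 ± 0.16 and 2.18 ± 0.15 (exact permutation p = 0.5 for each, n = 3 each). All 4 ratios had an adjusted p of 0.5, and 3 mice against 3 cannot give a p below 0.1 in this test. The Col6a1 to Col6a2 ratio was the steadiest, at 1.92 to 2.34 over all libraries.

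Collagen chains are hydroxylated, folded, exported, trimmed and cross-linked by dedicated proteins, and 37 of 38 listed genes of this machinery were tested. None passed an adjusted p of 0.05. Fold changes were above 0 for 28 genes and below 0 for 9, against 53.5% of all genes above 0, with a median of 0.13. RvD1 replicate 1 had the highest TPM for 17 of the 37 tested genes, against 36.5% of all genes. The summed TPM of the list was 6795, 5466 and 6312 with RvD1 and 5961, 5863 and 5500 with vehicle. Sparc, a matrix protein that binds procollagen, and the chaperone Hspa5 were the most abundant. Hspa5 was at 1352, 1173 and 1385 TPM with RvD1 and 1321, 1325 and 1193 TPM with vehicle (log2 fold change -0.082 ± 0.09). Sparc was at 1865, 1016 and 1179 TPM with RvD1 and 1113, 1061 and 996 TPM with vehicle, while Serpinh1, the collagen chaperone HSP47, was at 798 ± 42.1 and 756 ± 51.0 TPM (log2 fold change -0.008 ± 0.085).

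Unadjusted p values under 0.05 were found for 3 of the 37 tested genes, against 3.47% of all genes, all with an adjusted p of 0.971 in edgeR. Loxl2, a lysyl oxidase that cross-links collagen, was at 6.56, 6.00 and 8.58 TPM with RvD1 and 3.67, 4.31 and 4.74 TPM with vehicle. Its log2 fold change was 0.53 ± 0.19 (unadjusted p = 0.0239, edgeR). Every RvD1 value lay above every vehicle value, as for 8.89% of all genes tested. P3h3, of the prolyl 3-hydroxylase family, was at 12.2, 5.81 and 9.79 TPM with RvD1 and 6.26, 5.46 and 4.36 TPM with vehicle (0.58 ± 0.24, unadjusted p = 0.0385). Ppib, cyclophilin B, which isomerises prolines in folding collagen, was at 608, 607 and 671 TPM with RvD1 and 664, 715 and 682 TPM with vehicle (-0.21 ± 0.09, unadjusted p = 0.0449). Of these 3 genes, P3h3 and Ppib overlapped between the groups in TPM. Lox, the main lysyl oxidase, followed the order of the collagens at 159, 65.2 and 107 TPM with RvD1 and 71.9, 68.1 and 73.8 TPM with vehicle (0.54 ± 0.25, unadjusted p = 0.0585).

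Of 10 collagen receptor genes 9 were tested, 8 of them above 0 and 1 (Lair1) below, against 53.5% of all genes above 0. Their median log2 fold change was 0.11, and none had an unadjusted p under 0.05 in edgeR, against 3.47% of all genes. Itgb1, the β1 integrin chain by which the cells were sorted, was the highest, at 486 ± 38.1 TPM with RvD1, against 454 ± 13.1 TPM with vehicle (log2 fold change 0.013 ± 0.081). The discoidin domain receptors Ddr1 and Ddr2, which are kinases that bind collagen, had log2 fold changes of 0.070 ± 0.11 and 0.095 ± 0.086. Itga1, the α chain of a collagen-binding integrin, was at 10.2, 3.21 and 6.10 TPM with RvD1 and 4.19, 3.44 and 3.22 TPM with vehicle (0.69 ± 0.31, unadjusted p = 0.0531). RvD1 replicates 1 and 3 were above every vehicle library, while RvD1 replicate 2 was level with the lowest of them.

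Summed markers of collagen-rich cell types followed the order of the collagens across the RvD1 libraries. Relative to the vehicle mean, collagen TPM was 1.72, 0.862 and 1.16 in RvD1 replicates 1, 2 and 3. For the 8 tenocyte markers the summed TPM was 2.36, 0.844 and 1.55 times the vehicle mean, and for the 15 fibro-adipogenic markers it was 1.99, 0.879 and 1.11 times. Both sums gave the order of the collagens, RvD1 replicate 1 first and RvD1 replicate 2 last among the RvD1 libraries. In RvD1 replicate 1, Thbs4 held 692 of 1221 tenocyte TPM, and Gsn and Dcn held 555 and 450 of 1222 fibro-adipogenic TPM. Fold changes were above 0 for 8 of 8 tested tenocyte markers and 12 of 13 tested fibro-adipogenic markers, against 53.5% of all genes tested. RvD1 replicate 1 was highest for 7 and 11 of them, against 36.5% of all genes. For the other tenocyte marker, Scx, RvD1 replicate 1 was the lowest library. Scx was at 48.1, 57.9 and 68.8 TPM with RvD1 and 52.7, 55.6 and 53.9 TPM with vehicle. The fibro-adipogenic marker below 0 was Ly6a, which codes for the Sca-1 used to gate cells out (log2 fold change -0.62 ± 0.20). Dcn, the small proteoglycan decorin that binds collagen fibrils, was at 450, 182 and 284 TPM with RvD1 and 196, 203 and 225 TPM with vehicle. Thbs4, a tendon matrix gene, was at 692, 263 and 462 TPM with RvD1 and 285, 283 and 297 TPM with vehicle. No marker of these lists was at 0 in every library. Pdgfra, the surface receptor of fibro-adipogenic cells, was highest in RvD1 replicate 3. It was at 3.48, 2.67 and 3.55 TPM with RvD1 and 1.57, 2.51 and 2.52 TPM with vehicle.

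The mural cell markers summed to 1.63, 0.800 and 1.19 times the vehicle mean in RvD1 replicates 1, 2 and 3. The Schwann cell markers summed to 1.66, 1.02 and 1.22 times, and both gave the same order. In RvD1 replicate 1, Acta2 held 512 of 630 mural TPM, and Ncam1 and Pmp22 held 149 and 117 of 312 Schwann TPM. RvD1 replicate 1 was highest for 6 of 8 markers in each list, against 36.5% of all genes. Cspg4, a mural marker, was highest in RvD1 replicate 3, as was Sox10, a Schwann marker. Their RvD1 values were 7.85, 6.83 and 9.61 TPM for Cspg4 and 2.56, 1.60 and 2.74 TPM for Sox10. The 12 myogenic markers were at 1.09, 1.01 and 1.26 times, with RvD1 replicate 3 the highest. Leukocyte markers were at 0.792, 0.508 and 0.518 times the vehicle mean in RvD1 replicates 1, 2 and 3, against 1.08, 0.690 and 1.23 times in the vehicle replicates. Of these, 10 of 11 tested markers were below 0, while 53.5% of all genes tested were above 0. Endothelial markers were at 1.14, 0.820 and 0.831 times, against 0.973, 0.519 and 1.51 times in the vehicle replicates. Here 8 of 10 were below 0, against the same share of all genes, with a median log2 fold change of -0.95. The endothelial markers were low, at means of 0.383 (Tie1) to 6.41 TPM (Egfl7). In both sums RvD1 replicate 1 was again the highest and RvD1 replicate 2 the lowest of the RvD1 libraries, and both sums overlapped between the groups. At an unadjusted p under 0.05 (edgeR), 2 of 8 tenocyte, 2 of 8 mural and 2 of 8 Schwann markers were higher with RvD1. Of the 13 tested fibro-adipogenic markers 1 was higher and 1 lower. Of the 11 tested leukocyte markers 3 were lower, namely Lyz2, C1qb and Tyrobp. The share of all genes, in either direction, was 3.47%. C1qb was at 3.38 to 3.49 TPM with RvD1 and 4.81 to 6.34 TPM with vehicle. Tyrobp was at 1.88 to 3.78 and 4.62 to 5.51 TPM. Groups apart in this direction were found for 2.52% of all genes tested. The part of other cell types in the collagen values was not tested, and none of the listed markers passed an adjusted p of 0.05 in edgeR.

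**Figure D4:**
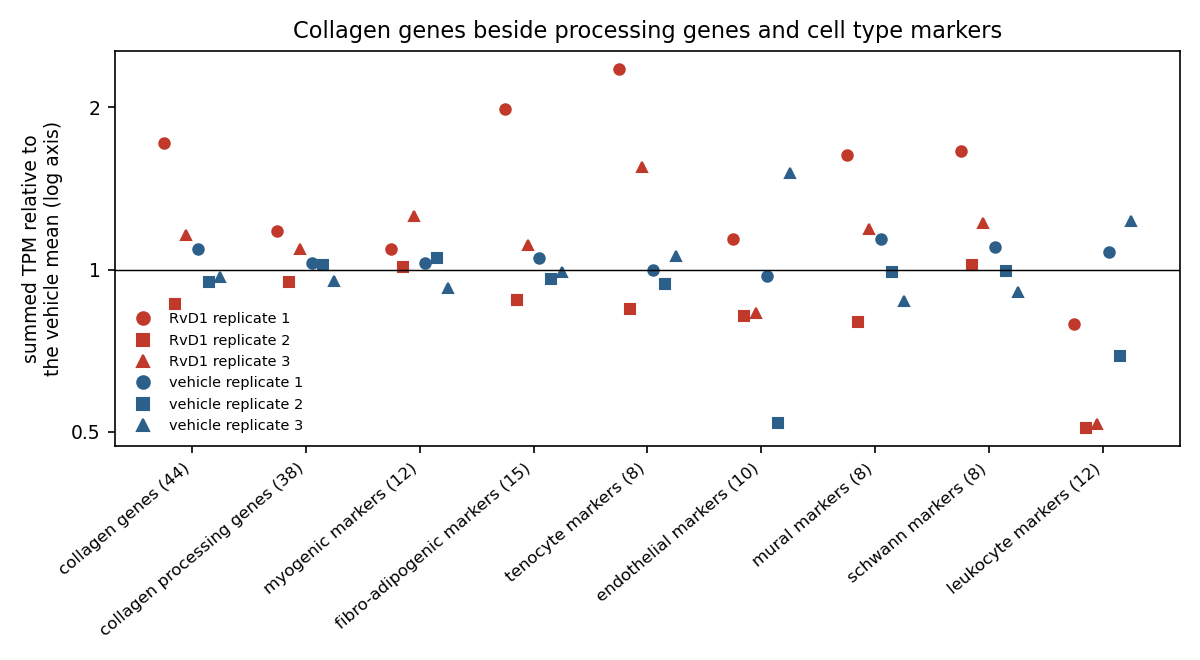
Summed TPM of each gene list relative to the mean of the vehicle libraries (vertical log axis), with the number of genes in brackets, RvD1 in red, vehicle in blue and replicates 1, 2 and 3 as circle, square and triangle. RvD1 replicate 1 reaches 1.72 for collagen genes, 1.99 for fibro-adipogenic markers and 2.36 for tenocyte markers, while RvD1 replicate 2 lies at 0.862, 0.879 and 0.844.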

How the data were processed

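RNA was measured by RNA-Seq in MuSCs sorted from the TA muscles of 6 mice. Reads of 76 bp were aligned to mm10 with STAR 2.5.0a by the authors, and RSEM gave a value for each gene. The deposited files hold RSEM's expected counts, left unscaled for depth. Separate deposited files hold TPM, in which the authors corrected for transcript length and set each library to the same total, and FPKM, corrected by the authors for length and fragment number and used here only as an alternative. Libraries held 16148026 to 28149176 counts. Reads carry no molecular identifiers. A stray header line was removed.

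Expected counts were rounded and tested with edgeR 4.0.16 in R 4.3.3 (TMM, filterByExpr by group, two-sided quasi-likelihood test), with Benjamini-Hochberg adjustment over all 14494 genes tested. TPM, which is scaled for length, was used for levels. Chain ratios were compared by exact permutation over libraries. Positions are from GENCODE M21 on GRCm38 and sequences from RefSeq. Basement membrane genes were Col4a1 to Col4a6, Col15a1 and Col18a1. The study's procedure (voom in limma 3.58.1 with surrogate variables from sva 3.50.0 removed) does not state their number, a filter or a normalization and was an alternative, as were DESeq2 1.42.0, other scaling, filters, units and pseudocounts, a replicate block, and each replicate left out.

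Collagen genes with a value for every library were, by rule, the 12 with the highest mean TPM, the 2 highest of each class, and tested genes with an unadjusted p under 0.05 or with TPM that do not overlap between groups. For the machinery and receptors they were those with an unadjusted p under 0.05 and the highest by TPM. Sparc and Serpinh1 were given outside this rule. Col11a1, Col11a2, Col20a1, Col25a1, Lox, Itga1, Dcn and Thbs4 were chosen after their values were seen. The same holds for Scx, Pdgfra, Ly6a, Cspg4, Sox10, Itgam, Lyz2, Cd68, C1qb and Tyrobp. The members and the gene lists were chosen with earlier results of these data known. The tests were tested on simulated data. A p value in edgeR sets the difference between groups against the spread among the 3 mice of a group, estimated with information from all genes. The permutation p for the ratios sets it against rearranged group labels.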

Additional observations from a re-analysis of the deposited data

How the results depend on the processing

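No collagen gene passed an adjusted p of 0.05 under any alternative but the removal of 2 surrogate variables with limma-voom, where 2 did (Col9a1 and Col22a1, both under the count filter used here) and 1727 of all genes did. Without a filter on low counts 12 of all genes passed, and with each replicate left out 0 to 1. The number of collagen genes with an unadjusted p under 0.05, 0 in edgeR, was 1 with DESeq2, 8 without a filter, 4 with surrogate variables by num.sv, 4 with 1 and 10 with 2 surrogate variables, 1 with limma on log2(TPM + 1), and 0 to 10 with each replicate left out, the highest without RvD1 replicate 2. The share of all genes in the same fit was 3.27% with DESeq2, 4.29% without a filter, 11.2% with num.sv or 1 surrogate variable, 25.3% with 2 and 4.35% with limma on log2(TPM + 1). For the machinery the number, 3 in edgeR, was 7 with num.sv or 1 surrogate variable, 17 with 2, and 1 to 5 with each replicate left out. For the receptors, 0 in edgeR, it was 1 with DESeq2, 2 without a filter, 1 with num.sv or 1 surrogate variable, 2 with 2, and 0 to 1 with each replicate left out. The cause was not tested.

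With a replicate block 3 collagen genes (Col4a1, Col16a1 and Col20a1) and 2 receptor genes had an unadjusted p under 0.05, as did 6.18% of all genes in that fit. Labels do not say that a number pairs mice, and deviations of same-numbered libraries correlated at 0.31, -0.00071 and 0.13, so the pairing was not used.

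With each replicate left out, the median log2 fold change of collagen genes was -0.025 to 0.42, and the log2 difference in summed TPM was 0.015 to 0.53 in all, 0.021 to 0.55 for fibrillar, 0.0070 to 0.35 for basement membrane, 0.10 to 0.66 for FACIT and -0.030 to 0.49 for other collagens. The log2 differences in ratio were 0.053 to 0.57 for Col1a1 to Col1a2, -0.60 to -0.15 for Col3a1 to Col1a1, -0.32 to -0.045 for Col4a1 to Col4a2 and -0.10 to 0.0030 for Col6a1 to Col6a2, the last above 0 without RvD1 replicate 3. Among the 15 collagen genes chosen by rule, signs turned in 15 values. With 2 surrogate variables Col3a1 was at -0.0060, Col12a1 at -0.0050 and Col6a1 at -0.029, and Col6a1 was at -0.014 with num.sv or 1. With each replicate left out the log2 fold change was -0.14 to 0.31 for Col3a1, -0.024 to 0.36 for Col1a2, -0.17 to 0.36 for Col6a1, -0.055 to 0.42 for Col6a2, -0.028 to 0.44 for Col4a1, -0.14 to 0.24 for Col5a3, -0.093 to 0.45 for Col5a1 and -0.15 to 0.47 for Col12a1, each lowest without RvD1 replicate 1, and -0.081 to 0.26 for Col14a1, lowest without vehicle replicate 1. Col5a3 was also below 0, at -0.047, without vehicle replicate 3. The other 255 values of these genes kept their direction and their side of the adjusted p threshold, though some passed an unadjusted p of 0.05, as Col1a1 and Col1a2 did without RvD1 replicate 2. Of all 36 members tested without RvD1 replicate 1, 21 were below 0, against 6 with all libraries. With 3 mice a group, the difference in each class sum was below the SD of the RvD1 libraries.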
